A study of Mus musculus with 7 samples.

Results

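The genes described here are 9 genes that move chloride, bicarbonate, sodium and potassium across the intestinal epithelium, or that signal for this transport: Cftr, Slc12a2, Kcnq1, Slc26a3, Slc26a6, Slc9a3, Slc9a2, Atp1b1 and Guca2b. They were taken by symbol from a deposited table of 46671 genes, in which all 9 were found, and all 9 passed the level required for testing, a mean of at least 0.5 FPKM (fragments per kilobase of transcript scaled to library size, a level per gene length), as did 13057 genes in all. The table covers 7 RNA-seq libraries of tissue labelled colorectal epithelium, from BALB/C mice of 8 weeks kept free of specific pathogens. The 3 Ctrl libraries have a wild-type (WT) genotype, and the 4 cKO libraries have a knockout in intestinal epithelial cells of Stk24, the gene of the STE20-family kinase MST3. The labels name no Cre line and no promoter, and they do not say which libraries are separate animals. Every p-value here therefore reflects variation among these 7 libraries, which may be partly technical. Reads assigned to genes numbered 14659708 to 19659622 per library. The labels state for both groups that no drug was given, while the design text of the series names AOM (azoxymethane) and DSS (dextran sulfate sodium), and this conflict was not settled.

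Ion transport in the gut works in opposed directions along the crypt and villus axis. In secreting crypt cells, chloride enters through the basolateral cotransporter NKCC1 (Slc12a2), potassium leaves again through channels such as KCNQ1, and chloride and bicarbonate pass into the lumen through CFTR. In absorbing cells, sodium is taken up by the exchangers NHE3 (Slc9a3) and NHE2 (Slc9a2), coupled to chloride and bicarbonate exchange by SLC26A3 (also called DRA) and SLC26A6 (PAT1). The basolateral sodium-potassium pump, of which Atp1b1 encodes the beta subunit, drives both directions, and uroguanylin, the peptide encoded by Guca2b, raises cyclic GMP through the receptor guanylate cyclase C (Gucy2c).

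The labelled tissue, colorectum, was checked against markers. Of 10 colon markers 6 lay under 0.5 FPKM on average, Hoxd10 and Hoxd13 were at 0 in all libraries, and the most abundant, Mettl7b, stood at 18.9 to 41.7 FPKM. The 10 enterocyte markers of small intestine were all tested, with a summed level of 20230 to 36900 FPKM led by Apoa1, and the Paneth cell genes summed to 4957 to 29680 FPKM led by Defa24. Reads of near-identical defensin genes may be divided among them by the counting, so the level of Defa24 is uncertain. Of 4 ileal markers all were tested, with Osr2 at 26.2 to 38.6 and Ubd at 4.70 to 31.9 FPKM, but Fabp6 at 0.234 to 4.19 and Slc10a2 at 0.287 to 2.72 FPKM. Of 5 duodenal markers 3 were tested, with Gata4 at 39.9 to 53.8 FPKM, while Onecut2 stood at 2.32 to 4.61 and Slc40a1 at 0.142 to 1.86 FPKM, and Pdx1 and Cybrd1 averaged under 0.5 FPKM. The levels of the 9 genes are therefore those of samples rich in small-intestinal enterocyte and Paneth cell genes. Over all genes the cKO libraries stood apart as replicates 1 and 2 and replicates 3 and 4. The chi-square per degree of freedom of their read counts was 19.5 between replicates 1 and 2 and 26.8 between replicates 3 and 4, against 50.9 to 73.5 for the other 4 cKO pairs. Pairs of Ctrl libraries gave 35.3 to 50.4, and pairs of a Ctrl with a cKO library gave 34.0 to 71.4. Abundant genes weigh most in this measure.

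RefSeq promoter sequences (build GRCm38.p6) were matched for 6 of the 9 genes, and 3 are shown because they belong to the most abundant member, to the exchanger with a rare sequence motif and to the chloride channel. Each runs 5′ to 3′ over the 250 bases before the annotated start. In Slc26a3 (chr12:31437969-31438218, plus strand) and Guca2b (chr4:119658946-119659195, minus strand) the capitals mark matches to the HNF1 motif, which is GTTAAT followed after 1 base of any kind by ATTAA, or to its first part GTTAAT alone, and in Cftr (chr6:18170437-18170686, plus strand) they mark the GC box GGGCGG. Both strands were searched.
Slc26a3: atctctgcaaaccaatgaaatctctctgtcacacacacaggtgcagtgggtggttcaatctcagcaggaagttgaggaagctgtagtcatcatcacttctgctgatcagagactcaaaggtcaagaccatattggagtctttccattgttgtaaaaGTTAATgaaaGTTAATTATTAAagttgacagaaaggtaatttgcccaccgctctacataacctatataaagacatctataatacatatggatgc
Guca2b: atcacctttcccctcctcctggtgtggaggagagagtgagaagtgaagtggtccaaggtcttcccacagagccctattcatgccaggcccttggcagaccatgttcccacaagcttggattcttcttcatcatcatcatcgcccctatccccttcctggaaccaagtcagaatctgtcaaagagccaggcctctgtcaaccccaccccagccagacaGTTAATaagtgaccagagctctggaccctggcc
Cftr: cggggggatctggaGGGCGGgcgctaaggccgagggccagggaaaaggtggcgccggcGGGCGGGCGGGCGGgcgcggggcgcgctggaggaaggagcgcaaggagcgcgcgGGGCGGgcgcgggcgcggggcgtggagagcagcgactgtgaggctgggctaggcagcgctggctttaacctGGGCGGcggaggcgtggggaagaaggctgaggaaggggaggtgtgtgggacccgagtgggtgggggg

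The Slc26a3 window held the whole HNF1 motif, from base -84 to base -73 before the start, and a further GTTAAT from base -94 to base -89. Of 32851 promoter windows of this length, 20 held the whole motif, or 0.0609%. In Guca2b the GTTAAT match lay from base -33 to base -28, and 6.43% of all windows held at least 1 such match, those within whole motifs included. The Cftr window held 6 matches to GGGCGG, of which 3 overlap each other. Of all windows 32.7% held at least 1 match, and 0.886% held at least 6, a cutoff taken from the Cftr count itself. The windows of Slc26a6, Slc9a3 and Atp1b1, not shown, also held GGGCGG matches. The motifs TATAAA and TTTATG were searched as well and are not marked. GC content was 76.4% in the Cftr window, 54.4% in Guca2b and 38.8% in Slc26a3, against a median of 52.4% over all windows. A match describes letters in this window and is not a measured binding site.

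Between the genotypes, none of the 9 genes differed beyond the spread of the libraries. By limma on log2(FPKM + 0.5), 0 of the 9 passed an adjusted p of 0.05, where 0.0306% of all tested genes passed, and 0 of the 9 had an unadjusted p under 0.05, where 8.97% of all tested genes did (4.24% higher and 4.73% lower in cKO). With limma voom on reads recovered from the values, 0 of the 9 passed as well. For each of the 9 the libraries of the groups overlapped, and over all tested genes the groups did not overlap for 10.1%. Of the 9 differences, 5 were above 0 and 4 below, as were 48.7% and 51.3% of all tested genes, with a median of 0.026 on the log2 scale against -0.0077 over all tested genes. The targeted gene, Stk24, stood at 19.4, 19.4 and 21.0 FPKM in the Ctrl libraries and at 2.92, 3.04, 3.85 and 3.53 FPKM in cKO replicates 1 to 4, with no overlap. It fell by 2.42 (log2, SE 0.12) with a limma adjusted p of 0.00043.

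**Figure D1:**
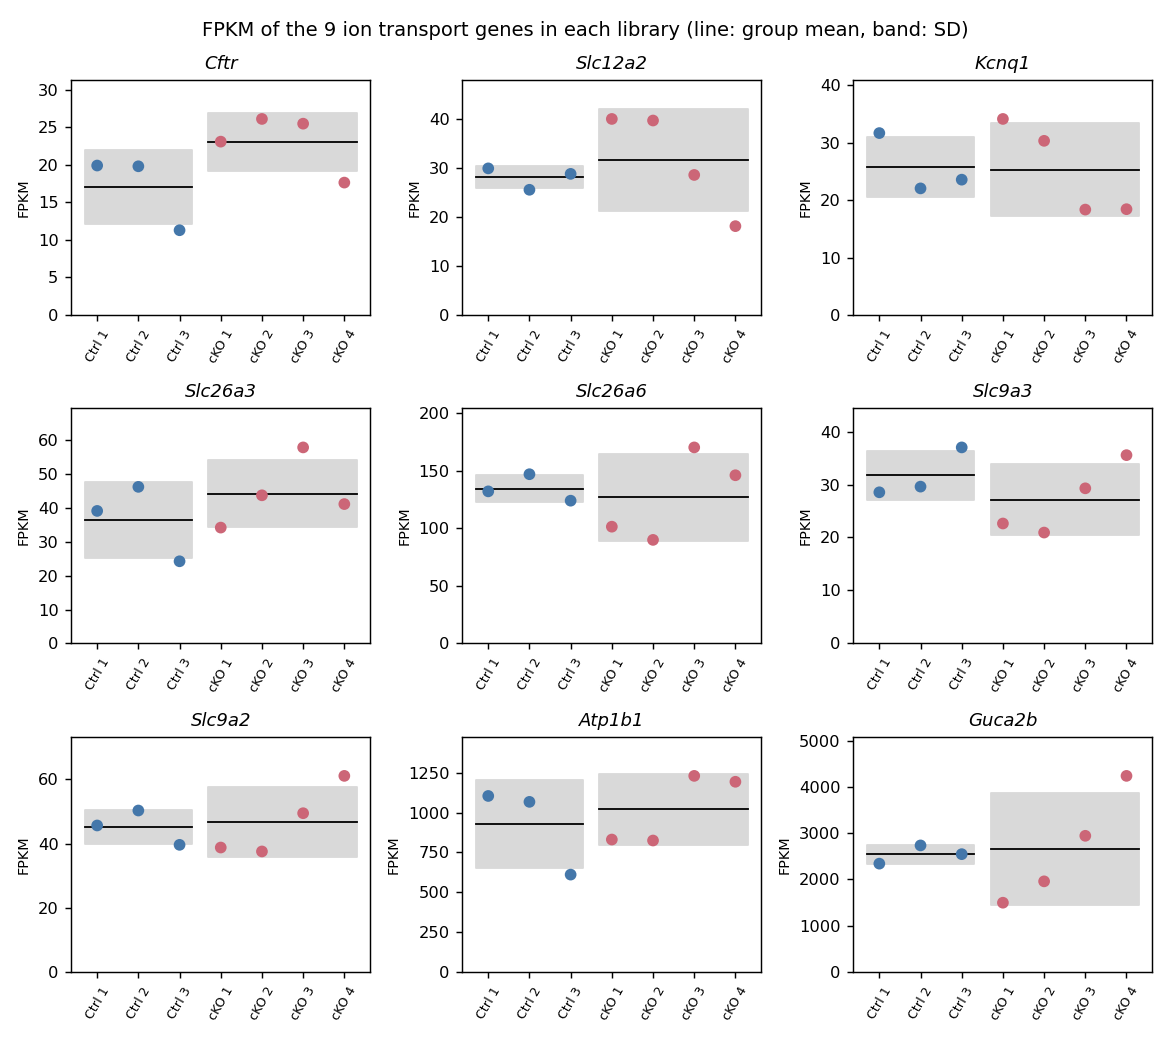
Each panel plots the FPKM of 1 gene (vertical axis, from 0) in the 3 Ctrl libraries (blue) and the 4 cKO libraries (red); the line is the group mean and the grey band its SD. The groups overlap in every panel, and the cKO libraries spread widely for Guca2b, between 1497 and 4240 FPKM, and for Slc12a2, between 18.1 and 39.9 FPKM.

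The levels spanned a wide range, and FPKM, being per length, allows them to be set side by side. Guca2b was the most abundant, with a mean of 2609 ± 868 FPKM (SD, n = 7), which ranked 17 among all genes of the table. Atp1b1 followed with 980 ± 229 FPKM (rank 59) and Slc26a6 with 130 ± 27.8 FPKM (rank 537). These 3 kept their order in 7 of 7 libraries, with ranges that did not overlap with their neighbours in the order. Below them came Slc9a2 at 46.0 ± 8.40, Slc26a3 at 40.9 ± 10.4, Slc12a2 at 30.1 ± 7.71, Slc9a3 at 29.1 ± 5.96, Kcnq1 at 25.5 ± 6.49 and Cftr at 20.5 ± 5.11 FPKM (SD, n = 7). Among these 6 each gene overlapped with the next, so that, for example, Slc12a2 lay above Slc9a3 in 3 of 7 libraries. Each value rested on many reads, from 912 in the least covered library for Kcnq1 to 55491 in the most covered one for Atp1b1, so counting error was small beside the spread between libraries.

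Among the genes of chloride secretion, Cftr showed the largest difference in size of the 9, and it did not pass. Cftr encodes the apical channel regulated by cyclic AMP and cyclic GMP, and lies on chromosome 6 from 18170686 to 18322769 (plus strand, GRCm39, as are the other gene positions). It stood at 19.9, 19.8 and 11.3 FPKM in Ctrl replicates 1 to 3 and at 23.1, 26.1, 25.5 and 17.6 FPKM in cKO replicates 1 to 4. Replicates 1 to 3 of cKO lay above all Ctrl libraries, cKO replicate 4 lay within the Ctrl range, and Ctrl replicate 3 was the lowest of all. The group means were 17.0 ± 4.94 (SD, n = 3) and 23.1 ± 3.85 FPKM (SD, n = 4), and the log2 difference was 0.46 (SE 0.23, limma adjusted p = 0.591, exact 2-sided permutation p = 0.171). The 95% interval of the difference ran from -0.063 to 0.98, a ratio of 0.958 to 1.97 on this scale. Without Ctrl replicate 3 the difference was 0.20, and without Ctrl replicate 1 it was 0.59. The smallest p that the exact test can give with 3 and 4 libraries is 0.0571.

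Slc12a2, the basolateral entry path for chloride, lies on chromosome 18 from 58011505 to 58079893 (plus strand). It stood at 29.9, 25.5 and 28.8 FPKM in Ctrl and at 39.9, 39.6, 28.5 and 18.1 FPKM in cKO. The cKO libraries thus lay on both sides of the Ctrl range, with replicates 1 and 2 above it, replicate 3 within it and replicate 4 below it. The means were 28.1 ± 2.26 (SD, n = 3) and 31.6 ± 10.4 FPKM (SD, n = 4), and the log2 difference was 0.10 (SE 0.26, limma adjusted p = 0.929). The 95% interval ran from -0.51 to 0.71.

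Kcnq1, the potassium channel that in the gut works with the subunit KCNE3, lies on chromosome 7 from 142660614 to 142980787 (plus strand). It stood at 31.7, 22.0 and 23.6 FPKM in Ctrl and at 34.1, 30.3, 18.3 and 18.4 FPKM in cKO. Again cKO replicates 1 and 2 were high and replicates 3 and 4 low, and here Ctrl replicate 1 stood with the high libraries. The log2 difference was -0.062 (SE 0.25, limma adjusted p = 0.958), with a 95% interval from -0.65 to 0.52. The antisense RNA Kcnq1ot1 lies within Kcnq1 on the other strand and was at most 0.0355 FPKM, and since the strand setting of the counting is not given in the sources used here, reads of the pair could not be told apart. The ratio of Kcnq1 to Kcne3 lay between 1.19 and 1.66 in Ctrl and between 0.995 and 1.67 in cKO. That of Slc12a2 to Cftr lay between 1.29 and 2.55 in Ctrl, highest in Ctrl replicate 3, and between 1.03 and 1.73 in cKO. No test was made on these ratios.

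The apical anion exchangers differed in level, with Slc26a6 above Slc26a3 in 7 of 7 libraries. Slc26a3, which exchanges chloride for bicarbonate, lies on chromosome 12 from 31483141 to 31523921 (plus strand). It stood at 39.1, 46.2 and 24.3 FPKM in Ctrl and at 34.2, 43.7, 57.9 and 41.1 FPKM in cKO. Ctrl replicate 3 was the lowest library and cKO replicate 3 the highest, with the other 5 between them. The log2 difference was 0.30 (SE 0.25, limma adjusted p = 0.744, 95% interval from -0.28 to 0.87), and it ran from 0.031 without Ctrl replicate 3 to 0.49 without Ctrl replicate 2.

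Slc26a6, which also carries oxalate and formate, lies on chromosome 9 from 108731239 to 108742117 (plus strand). It stood at 132, 147 and 124 FPKM in Ctrl and at 101, 90.02, 170 and 146 FPKM in cKO. Here cKO replicates 1 and 2 lay below the Ctrl range, replicate 4 within it and replicate 3 above it. The log2 difference was -0.13 (SE 0.23, limma adjusted p = 0.899), with a 95% interval from -0.66 to 0.40. Slc26a3 stood at 0.195 to 0.314 of the level of Slc26a6 in Ctrl and at 0.281 to 0.486 in cKO, with the highest ratio in cKO replicate 2.

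The sodium-hydrogen exchangers kept a steady ratio to each other across the cKO libraries, with Slc9a3 at a lower level than Slc9a2. Slc9a3 encodes NHE3, the main apical route of sodium absorption without a nutrient, and lies on chromosome 13 from 74234374 to 74317561 (plus strand). It stood at 28.5, 29.6 and 37.0 FPKM in Ctrl and at 22.6, 20.9, 29.3 and 35.5 FPKM in cKO. Replicates 1 and 2 of cKO lay below all Ctrl libraries and replicates 3 and 4 within the Ctrl range. The log2 difference was -0.24 (SE 0.20, limma adjusted p = 0.733), with a 95% interval from -0.70 to 0.21, and it ran from -0.13 without Ctrl replicate 3 or without cKO replicate 2 to -0.38 without cKO replicate 4. The lncRNA gene Gm41003 overlaps Slc9a3 on the same strand, at 1.40 to 5.43 FPKM, so the division of reads between the 2 genes is uncertain.

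Slc9a2, which encodes the related apical exchanger NHE2, lies on chromosome 1 from 40720872 to 40808045 (plus strand). It stood at 45.6, 50.3 and 39.6 FPKM in Ctrl and at 38.7, 37.5, 49.4 and 61.1 FPKM in cKO. The lowest libraries were again cKO replicates 1 and 2, and the highest was cKO replicate 4. The log2 difference was 0.026 (SE 0.19, limma adjusted p = 0.977), with a 95% interval from -0.41 to 0.46. The ratio of Slc9a3 to Slc9a2 lay within 0.558 and 0.592 in the 4 cKO libraries, whereas it was 0.625, 0.589 and 0.935 in Ctrl, so that Ctrl replicate 3 stood apart from the other 6.

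Atp1b1, the beta subunit that brings the sodium-potassium pump to the basolateral membrane, lies on chromosome 1 from 164264668 to 164285924 (minus strand). It stood at 1104, 1067 and 611 FPKM in Ctrl and at 831, 825, 1230 and 1193 FPKM in cKO. Ctrl replicate 3 was the lowest library, as for Cftr and Slc26a3, and cKO replicates 3 and 4 were the highest. The log2 difference was 0.16 (SE 0.28, limma adjusted p = 0.896), and it was -0.12 without Ctrl replicate 3. The 95% interval ran from -0.49 to 0.81. Nme7, at 1.10 to 1.76 FPKM, overlaps the gene on the other strand.

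Guca2b, on chromosome 4 from 119513798 to 119516142 (minus strand), encodes the precursor of uroguanylin, a gut peptide linked to salt balance. It stood at 2342, 2736 and 2547 FPKM in Ctrl and at 1497, 1959, 2944 and 4240 FPKM in cKO. The Ctrl libraries lay close together inside the cKO range, with cKO replicates 1 and 2 below them and replicates 3 and 4 above them. The means were 2542 ± 197 (SD, n = 3) and 2660 ± 1214 FPKM (SD, n = 4), and the log2 difference was -0.044 (SE 0.37, limma adjusted p = 0.980). With a 95% interval from -0.90 to 0.82, a ratio of 0.535 to 1.76, this was the least precise of the 9 comparisons. Guca2b stood at 2.79 to 5.54 times the level of Guca2a, the gene of the related peptide guanylin, over the 7 libraries.

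**Figure D2:**
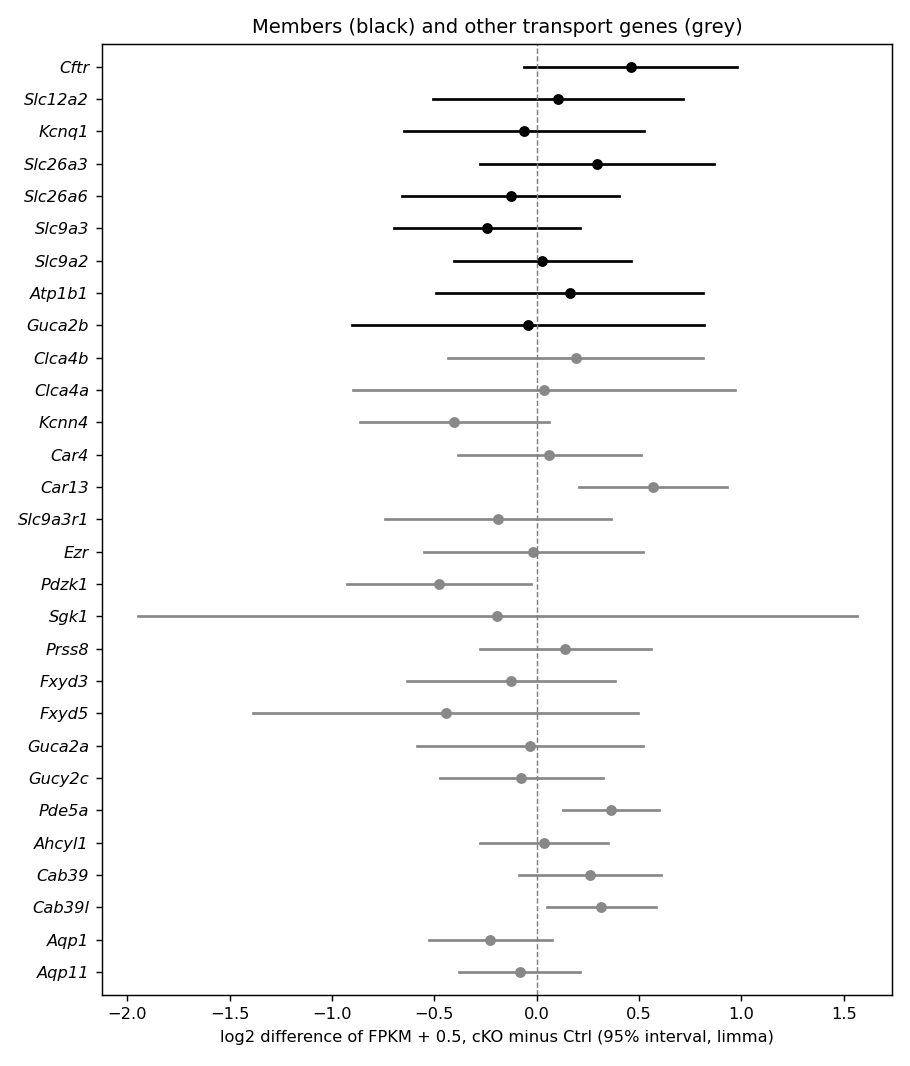
The points are log2 differences of FPKM + 0.5 (horizontal axis), cKO minus Ctrl, and the bars their 95% intervals from limma, for the 9 members (black) and for other transport genes chosen by level or smallest p (grey). The interval of every member spans 0, and the intervals of Car13, Pde5a, Cab39l and Pdzk1, which do not span 0, are not adjusted for the number of genes tested.

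Within the cKO group the 9 genes varied more than most. On the scale log2(FPKM + 0.5), the SD among the 4 cKO libraries was 0.66 for Guca2b, 0.53 for Slc12a2, 0.46 for Kcnq1 and 0.43 for Slc26a6, against a median of 0.21 over 4930 tested genes of at least 10 FPKM. The lowest of the 9 was Cftr at 0.25. The deposited scaling corresponds to 1.075, 1.102, 0.991 and 0.891 times the reads in genes for cKO replicates 1 to 4. The SDs and the orders of libraries given here were not recomputed under another scaling. For Guca2b and Slc12a2 the SD among the Ctrl libraries was 0.11 and 0.12, below the median of 0.17. Relative to the Ctrl mean, Slc12a2 lay at 0.51, 0.49, 0.03 and -0.62 in cKO replicates 1 to 4, and Kcnq1 at 0.42, 0.25, -0.46 and -0.46. Guca2b had the opposite order, at -0.76, -0.37, 0.21 and 0.74. Slc26a6, Slc9a3, Slc9a2 and Atp1b1 were likewise lower in cKO replicates 1 and 2 than in replicates 3 and 4, and Cftr and Slc26a3 followed neither order. The wide spread of Cftr, Slc26a3 and Atp1b1 lay instead among the Ctrl libraries, with SDs of 0.46, 0.48 and 0.48, where Ctrl replicate 3 stood at -0.53, -0.53 and -0.55 relative to the Ctrl mean.

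Markers of crypt and stem cells were on average higher in cKO replicates 1 and 2 than in replicates 3 and 4, as were Slc12a2 and Kcnq1. All 8 genes of that list were tested, and 0 passed in limma (lowest adjusted p = 0.722). Their mean log2 level relative to Ctrl was 0.44 in cKO replicate 1 and 0.38 in replicate 2, but -0.22 in replicate 3 and -0.38 in replicate 4, and it lay between -0.17 and 0.17 in the Ctrl libraries. Ascl2 departed from this order, at 0.57, 0.03, 0.08 and -0.55 in cKO replicates 1 to 4. The summed level of the list was 461 to 553 FPKM in Ctrl and 359 to 711 FPKM in cKO. Olfm4, its most abundant gene and a marker of crypt base cells, stood at 367, 304 and 333 FPKM in Ctrl and at 492, 452, 296 and 207 FPKM in cKO. Markers of small-intestinal enterocytes, 10 of 10 tested, averaged -0.50, -0.53, -0.13 and 0.18 over cKO replicates 1 to 4. The genes of that list did not move as one. In replicate 3 Fabp1 stood at -1.70 and Apoa1 at -0.63, but Sis at 0.49 and Lct at 0.37. In replicate 2 Sis stood at 0.16. For the 6 Paneth cell genes the means over cKO replicates 1 to 4 were 0.29, 0.59, -1.20 and -1.43. For 7 of 8 T cell genes they were -1.12, -0.75, 0.06 and 0.22, with Cd4 below the level for testing. In Ctrl replicate 3 the Paneth cell genes averaged 0.60 and the villus tip genes 0.56, the highest of the Ctrl libraries. The small-intestinal enterocyte genes averaged -0.12 there, the lowest of the Ctrl libraries. The part of these cell types in the values of the 9 genes was not tested. In bulk samples fewer cells of a type and less RNA per cell cannot be told apart.

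**Figure D3:**
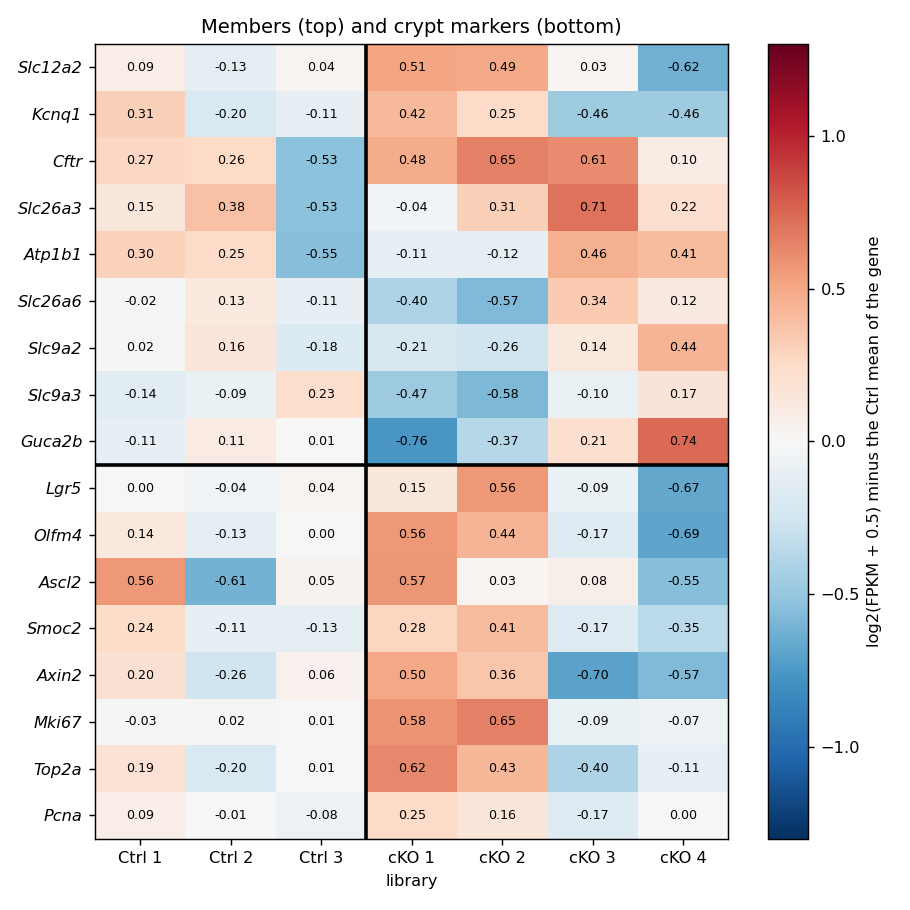
Colours and printed values give log2(FPKM + 0.5) in each library (columns) minus the Ctrl mean of the gene, for the 9 members (above the line) and 8 crypt and stem cell markers (below it). Slc12a2 and Kcnq1 are above 0 in cKO replicates 1 and 2, as are the crypt markers, while Guca2b lies at -0.76 and -0.37 there.

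The genes whose profiles over the 7 libraries lay closest to those of the members were sought among 4929 other tested genes of at least 10 FPKM, by the root mean square distance of log2 values centred on their means. The closest gene to Slc12a2 was Olfm4, at a distance of 0.080, and the closest to Kcnq1 was the fatty acid desaturase gene Fads2, at 0.057. Slc26a6 was closest to Mxd1 (0.058), Slc9a3 to Litaf (0.054), Slc9a2 to Cdk18 (0.045) and Guca2b to the monocarboxylate transporter gene Slc16a5 (0.094). Slc26a3 was closest to Maob (0.11), Atp1b1 to Ccdc32 (0.076) and Cftr to Gm21885 (0.15). With 7 libraries and this many candidates, close profiles are a description only. Among the members themselves the closest pair was Slc26a6 and Slc9a2 (0.18) and the most distant was Slc12a2 and Guca2b (0.78).

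Around the 9 genes, 80 other genes of epithelial transport were listed in 8 role groups, of which 58 reached the level for testing. In limma 0 of the 58 passed, 4 had an unadjusted p under 0.05 (6.90%, against 8.97% of all tested genes), and for 5 the groups did not overlap (8.62%, against 10.1%). Of the 58 differences 27 were above 0 and 31 below, with a median of -0.018. These shares are near those of all genes. For comparison with the counts of each role group below, 48.7% of all tested genes were higher and 51.3% lower in cKO, and 0.0306% passed. The groups are small, and no test of the direction of a group was made.

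In the group of chloride channels and potassium recycling, 12 of 15 genes could be tested, the members included, with 7 higher and 5 lower in cKO, 0 passing and a median of 0.057. Its most abundant genes were Clca4b and Clca4a, of the family of calcium-activated chloride channel regulators, with 422 to 869 and 230 to 654 FPKM over the libraries. They are close paralogs, and how the counting divided their reads is not known. Kcnn4, the basolateral potassium channel opened by calcium, had the smallest p of the other genes of the group, at 29.7, 19.6 and 28.1 FPKM in Ctrl and 25.1, 19.7, 17.4 and 15.5 FPKM in cKO (log2 difference -0.40, SE 0.20, limma adjusted p = 0.593). The calcium-activated chloride channel gene Ano1 stood at 0.226 to 0.618 FPKM, far below Cftr. Best2 and Kcnma1 likewise lay under the level for testing.

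For anion exchange and bicarbonate, 11 of 17 genes were tested, with 7 higher, 4 lower, 0 passing and a median of 0.14. Car13, a cytosolic carbonic anhydrase, had the smallest p of all 58 genes. It stood at 43.4, 33.6 and 37.9 FPKM in Ctrl and at 50.6, 53.6, 53.0 and 72.1 FPKM in cKO, so that all cKO libraries lay above all Ctrl libraries (log2 difference 0.57, SE 0.16, limma adjusted p = 0.493). Car4, the membrane-bound carbonic anhydrase of the brush border, stood at 85.8 to 141 FPKM with a log2 difference of 0.062. Car1, a carbonic anhydrase known from colon epithelium, gave 2 reads in all 7 libraries together, and Slc26a9 was listed at 0 in 7 of 7, where a count of 3 reads would stand at 0.0313 to 0.0436 FPKM.

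In the group of sodium-hydrogen exchange and scaffolds, 11 of 12 genes were tested, with 2 higher, 9 lower, 0 passing and a median of -0.074. Slc9a3r1, the gene of the scaffold NHERF1 that holds NHE3 and CFTR at the apical membrane, stood at 1209, 953 and 857 FPKM in Ctrl and 791, 727, 828 and 1223 FPKM in cKO. Ezr, the linker of that complex to actin, stood at 353 to 644 FPKM. Pdzk1, a scaffold of the same family, lay at 45.5, 58.9 and 48.9 FPKM in Ctrl and at 44.3, 31.1, 28.2 and 44.8 FPKM in cKO, a difference of -0.48 (SE 0.20, limma adjusted p = 0.542). Its groups were separated by the small gap between Ctrl replicate 1 and cKO replicate 4.

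The epithelial sodium channel, which carries sodium in distal colon, had almost no reads for its beta and gamma subunit genes. Scnn1g had 0 reads in all 7 libraries, where 3 reads would stand at 0.0506 to 0.0705 FPKM, and Scnn1b had 1 read in all, while the alpha subunit gene Scnn1a stood at 2.14 to 4.13 FPKM. Of this group 6 of 8 genes were tested, 4 higher and 2 lower, with 0 passing and a median of 0.054. Sgk1, a kinase that raises sodium transport, had the largest coefficient of variation of the tested transport genes (65.3% over the 7 libraries), at 27.3, 114 and 153 FPKM in Ctrl and 37.6, 29.5, 115 and 170 FPKM in cKO. Prss8, a protease that activates the channel, stood at 7.88 to 12.6 FPKM and had the smallest p of the group (limma adjusted p = 0.8498).

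Of the pump group 5 of 11 genes were tested, 2 higher and 3 lower, with 0 passing and a median of -0.13. The other beta subunit genes stood far below Atp1b1, with Atp1b2 at most 0.0748 FPKM and Atp1b3 at 12.1 to 14.6 FPKM. The pump modulators Fxyd3 and Fxyd5 stood at 9.86 to 19.5 and 1.48 to 6.93 FPKM, and Fxyd5 had the smallest p of the other genes of the group (limma adjusted p = 0.762).

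In the group of cyclic nucleotide signalling 9 of 12 genes were tested, 2 higher and 7 lower, with 0 passing and a median of -0.044. Guca2a stood at 494, 540 and 776 FPKM in Ctrl and 536, 493, 532 and 796 FPKM in cKO, and Gucy2c, the receptor of both peptides, at 77.6 to 113 FPKM. Pde5a, which breaks down cyclic GMP, lay at 12.3, 13.3 and 13.6 FPKM in Ctrl and at 15.2, 17.6, 17.9 and 17.0 FPKM in cKO. All cKO libraries were above all Ctrl libraries, and the difference of 0.36 did not pass (SE 0.10, limma adjusted p = 0.511).

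The kinases WNK, SPAK (Stk39) and OSR1 (Oxsr1) switch NKCC1 on by phosphorylation, and MO25 proteins, encoded by Cab39 and Cab39l, bind SPAK and OSR1 as well as MST3. Of this group 8 of 8 genes were tested, 7 higher and 1 lower, with 0 passing and a median of 0.12. Cab39l stood at 9.43, 9.20 and 8.43 FPKM in Ctrl and at 10.3, 10.4, 12.96 and 11.8 FPKM in cKO, without overlap, and with a difference of 0.31 that did not pass (SE 0.12, limma adjusted p = 0.524). Cab39 stood at 37.7, 45.3 and 39.1 FPKM in Ctrl and at 39.9, 45.4, 55.1 and 56.2 FPKM in cKO (difference 0.26, limma adjusted p = 0.637). Ahcyl1, the gene of IRBIT, which acts on CFTR and bicarbonate carriers, stood at 55.9 to 75.2 FPKM.

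Among water channels 5 of 6 genes were tested, 1 higher and 4 lower, with 0 passing and a median of -0.14. Aqp1 stood at 152, 185 and 183 FPKM in Ctrl and at 142, 138, 164 and 146 FPKM in cKO (difference -0.23, limma adjusted p = 0.640), and Aqp11 at 46.8 to 62.6 FPKM. Aqp8, abundant in colon, stood between 0 and 1.56 FPKM.

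**Figure D4:**
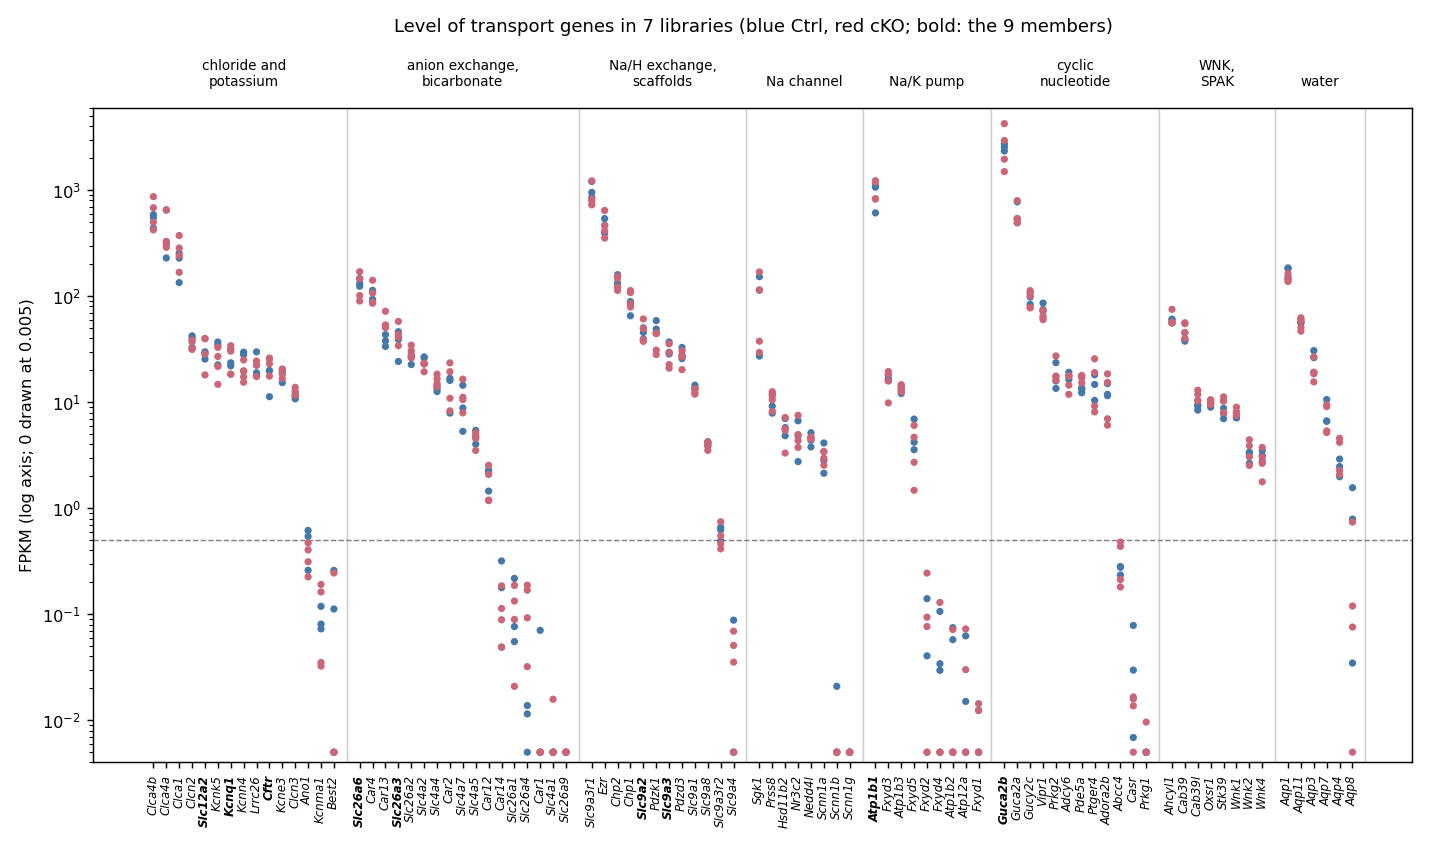
Each column of points is 1 transport gene in 7 libraries (vertical log axis, FPKM; 0 is drawn at 0.005), ordered by mean within its role group, with Ctrl in blue, cKO in red, the 9 members in bold and the level for testing at 0.5 FPKM dashed. Guca2b, Atp1b1 and Slc9a3r1 stand high, with means of 2609, 980 and 941 FPKM, and Scnn1g and Slc26a9 are at 0 in every library.

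Epithelial markers summed to 5458 to 7938 FPKM, led by Krt8. Goblet cell markers summed to 3701 to 7068 FPKM, led by Zg16, and villus tip markers to 4833 to 11220 FPKM, led by Apoa4. T cell markers were present, at 416 to 1030 FPKM in Ctrl and 269 to 654 FPKM in cKO, led by Gzma, and B and plasma cell markers summed to 20.9 to 56.9 and 40.2 to 162 FPKM, led by Igkc. Myeloid markers summed to 7.14 to 13.02 FPKM, led by Lyz2, fibroblast markers to 0.676 to 7.91 FPKM, led by Dcn, and pancreatic markers to 4.71 to 10.4 FPKM, nearly all from Cela1. Smooth muscle, endothelial and neural or glial markers each summed to under 1 FPKM in every library. In the 17 marker lists 0 of the tested genes passed in limma, where 0.0306% of all tested genes passed. No gene of the smooth muscle, endothelial and neural or glial lists could be tested, and only 1 each of the fibroblast and pancreatic lists.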

How the data were processed

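RNA-seq of 3 Ctrl and 4 cKO libraries was used. The authors deposited FPKM values per gene; reads had been aligned with HISAT2, per the submitters' processing notes, and which program counted them, with which strand setting and annotation, is not given in the sources used here. Sequence accessions in the table are those of GRCm39; promoter coordinates are GRCm38.p6 from RefSeq, and the 2 builds were not mixed. Replicate numbers are those of the sample titles. Columns were matched by the sample descriptions, whose numbers differ: the columns Ctrl_1, Ctrl_3 and Ctrl_4 hold Ctrl replicates 1 to 3, and cKO_5 to cKO_8 hold cKO replicates 1 to 4. Within 0.01 of a whole number, 100% of FPKM values times length were multiples of 1 step per library, which gave 14659708 to 19659622 reads per library. The deposited scaling corresponds to 0.891 to 1.10 times these totals. No pair of libraries agreed within sampling noise (chi-square per degree of freedom at least 19.5).

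Genes averaging 0.5 FPKM or more were tested on log2(FPKM + 0.5), a scale that understates changes of low genes, with limma 3.58.1 in R 4.3.3 (lmFit, eBayes with trend, 2-sided, Benjamini-Hochberg adjustment over all tested genes, threshold 0.05). The exact permutation test used the 35 splits into 3 and 4. The scripts were tested on simulated data. The members, gene lists and tests were chosen with earlier results of these data known. Named genes were the members and Stk24, in each role group the 2 other genes of highest mean and the 1 of smallest p, the most abundant gene of each marker list, and the closest profile to each member. Ano1, Best2, Kcnma1, Car1, Slc26a9, Scnn1a, Scnn1b, Scnn1g, Atp1b2, Atp1b3, Aqp8, Hoxd10, Hoxd13, the other duodenal and ileal markers, Kcne3, Oxsr1, Stk39 and the genes overlapping a member were added after their values were seen or as partners of members. Of 203 listed symbols, all were matched, 2 by an older symbol. Some genes of the pump group are not reported here by name. Alternatives are named in the closing section.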

Additional observations from a re-analysis of the deposited data

Results flagged for a closer look

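Among 54 results checked within the 4 cKO libraries, 6 had 1 library far from the other 3. Chance gives about 1 in 20 for independent, normally distributed values. The 54 results share the same libraries, so this rate is only a guide and no excess can be read from the count. The 3 Ctrl libraries are too few for this check. In cKO replicate 4, Clca4a stood at 654 FPKM, Guca2a at 796 FPKM, Car13 at 72.1 FPKM and Ahcyl1 at 75.2 FPKM, each above the other cKO libraries. FPKM values of cKO replicate 4 were divided by 0.891 times its reads in genes, against 0.991 to 1.10 times in the other cKO libraries. This raises every value of that library, and the check was not repeated under another scaling. In cKO replicate 3, Zg16 stood at 1628 FPKM, below the others. Actg2 stood there at 0.105 FPKM (2 reads), where the others were listed at 0, a pattern that the rule flags at any level. None of the 9 members was among these results.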

How the results depend on the processing

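The count of members passing was 0 under each of the 22 alternative fits and under thresholds of an adjusted p of 0.1 or an unadjusted p of 0.05, and the lowest adjusted p of a member in any fit was 0.404. The count over all genes, 4, was 1 with a pseudocount of 0.1, with no filter, with a mean of at least 1 FPKM and once the dependence on gene length was taken out of each library. It was 2 when scaled on a sum less abundant genes, 1171 at an unadjusted p of 0.05, and between 1 and 7 when 1 library was left out. Same-numbered libraries did not deviate together (correlations 0.115, -0.0872 and -0.129). These few correlations show no pairing by number but cannot exclude one. With the replicate number as a block in limma 0 genes passed, 1052 having an unadjusted p under 0.05, and Stk24 stood at -2.45 with an adjusted p of 0.137. Since cKO replicate 4 has no Ctrl library of its number, it does not enter the differences under the block, which equal those without it: Slc9a2 stood at -0.11 and Kcnq1 at 0.068.

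Of 198 alternative values of the 9 log2 differences, 24 had the opposite sign, and Cftr, Slc26a3 and Slc9a3 kept theirs in all. The changes of filter and of variance estimate leave a difference as it was, so those values could not change sign. The block repeats the values without cKO replicate 4, so the 198 values are not independent checks. Array weights gave -0.15 for Slc9a2, -0.076 for Atp1b1 and 0.14 for Kcnq1. TPM scaling gave 0.025 for Kcnq1 and 0.044 for Guca2b, the sum less abundant genes 0.033 and 0.053, quantile normalization 0.012 for Kcnq1, and the length correction 0.15 for Guca2b. With 1 library left out, values ran from -0.28 to 0.023 for Slc26a6, -0.11 to 0.12 for Slc9a2, -0.031 to 0.34 for Slc12a2, -0.12 to 0.31 for Atp1b1, -0.22 to 0.093 for Kcnq1 and -0.31 to 0.19 for Guca2b. The cause was not tested. The remaining alternatives were a pseudocount of 1, a second median-of-ratios scaling, FPKM per recovered read, voom, and untrended or robust variance.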

Other observations

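Adora2b and Ptger4, receptors through which secretion is stimulated, also varied among the cKO libraries, while Vipr1 varied less; the 3 were chosen after their values were seen. Adora2b, an adenosine receptor, stood at 11.9, 15.0 and 11.5 FPKM in Ctrl replicates 1 to 3 and at 6.07, 6.98, 15.4 and 18.5 FPKM in cKO replicates 1 to 4. Ptger4, a receptor of prostaglandin E2, stood at 10.4, 14.7 and 18.2 FPKM in Ctrl and at 9.22, 8.11, 19.0 and 25.7 FPKM in cKO. Both were lowest in cKO replicates 1 and 2, the libraries in which Guca2b was lowest as well. Adcy6, of the same role group and also chosen after its values were seen, had the opposite order. It stood at 17.75, 17.6, 14.5 and 11.87 FPKM in cKO replicates 1 to 4. Vipr1, the receptor of vasoactive intestinal peptide, stood at 60.1 to 86.1 FPKM over all 7 libraries.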
